A study of Mus musculus with 33 samples.

Results

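Conventional dendritic cells of type 2 (cDC2) from mouse kidney were compared with cDC2 from mouse spleen by RNA sequencing. The members are 6 of the 33 libraries of the series: 3 kidney cDC2 libraries whose names begin with GS, and 3 spleen cDC2 libraries. Each kidney library shares a sort code with 1 spleen library, which gives 3 pairs, called here pairs 1, 2 and 3. The other libraries hold type 1 conventional dendritic cells (cDC1), kidney macrophage populations and splenic red pulp macrophages. All mice were C57BL/6, 10 weeks old, with Clec9a-Cre in both copies and the Rosa-YFP reporter in both copies, so no group lacks these alleles. In this line Cre is driven from Clec9a, a gene used in dendritic cell progenitors and in cDC1, and YFP marks cells that descend from cells which once used it. Kidney cDC2 were sorted as CD45+ and MHCII+ cells without Ly6C or CD64 that carried CD11c, CD11b and YFP. Spleen cDC2 were sorted as MHCII+ cells with CD11c, CD11b and YFP and without autofluorescence, so CD64 and Ly6C were used for the kidney gate and are not named for the spleen gate. The labels do not say whether a library holds 1 mouse or pooled mice. The adjusted p-values therefore measure the spread between these sorts.

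As background, cDC2 take up antigen in tissues and present it on MHC class II to CD4+ T cells, and they are recognised by SIRPA, CD11b and the transcription factors IRF4 and ZEB2. In mouse spleen a large share of cDC2 depends on NOTCH2 and its nuclear partner RBPJ, meets the Notch ligand DLL1 on stromal cells, and carries ESAM, CD4 and CLEC4A4 at its surface. When a Notch receptor is engaged its intracellular part moves to the nucleus, joins RBPJ and switches on genes such as Hes1 and Dtx1. Another part of the cDC2 family, described in several tissues, carries the galactose-binding lectins CLEC10A and MGL2 and the lectin CD209A.

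The 6 libraries held between 11380461 and 23000575 reads assigned to genes, and a further 28.52% to 37.24% of reads fell outside the gene counts. Levels are given as CPM, the read count of a gene divided by the library size after scaling with edgeR's TMM factors. On log2 values the spleen libraries correlated at 0.974 to 0.98 with each other and kidney libraries 2 and 3 at 0.973, whereas kidney library 1 correlated at 0.921 and 0.915 with the other 2. Kidney library 1 stood apart by transcript length, with the genes split into 4 bins of equal size. Against the mean of kidney libraries 2 and 3, its median log2 level was 0.69 higher for the shortest transcripts (up to 1747 bases) and differed by -0.52 for the longest (4103 bases or more). Spleen library 1, set against spleen libraries 2 and 3 in the same way, differed by -0.02 and -0.10 in those bins. The kidney-spleen difference itself followed length, with a median log2 difference of 0.58 in the shortest bin and -0.41 in the longest, and of 0.32 and -0.27 without pair 1. The part of length in the single results was not tested. Pair 1 also differed in sex-linked transcripts. Xist, transcribed from the inactive X chromosome, read 0, 145 and 182 CPM in kidney cDC2 and 0.14, 161 and 227 CPM in spleen cDC2, and the Y-linked Ddx3y read 29.3, 0 and 0 CPM in kidney cDC2 and 183, 0.056 and 0 CPM in spleen cDC2. Results whose call rests on pair 1 are given below with and without it.

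Genes used to recognise cDC2 were read in both organs. A gene was called higher or lower at an adjusted p below 0.05 and an absolute log2 difference of at least 1, which held for 11.2% and 10.1% of all genes tested. Of 18 tested cDC2 genes, 7 were higher and 5 lower in kidney cDC2, or 5 and 6 without TMM scaling. The summed level was 8024, 8782 and 7983 CPM in kidney cDC2 and 3801, 4500 and 4184 CPM in spleen cDC2. The lectins Cd209a, Clec10a and Mgl2, described below, made up most of this sum in kidney cDC2 and a small part of it in spleen cDC2. The higher kidney sum therefore does not hold for the list without them. In kidney cDC1 of the same sorts the same sum was 758.3 to 930.4 CPM, and in spleen cDC1 784.9 to 870.2 CPM. Irf4 read 66.1, 134 and 129.8 CPM in kidney cDC2 and 101, 192 and 168 CPM in spleen cDC2. The 2 groups overlapped, although kidney cDC2 was lower within each pair. Irf4 was not called with edgeR and was called lower with limma on the authors' TPM values (log2 difference -1.20, adjusted p = 0.0103). Zeb2 also overlapped, at 37.97, 84.6 and 83.5 CPM in kidney cDC2 and 57.9, 86.3 and 97.8 CPM in spleen cDC2. It too was lower in kidney cDC2 within each pair. The 95% interval of the log2 difference was -0.93 to -0.07 for Irf4 and -0.77 to 0.20 for Zeb2. Sirpa, the inhibitory receptor used to recognise cDC2, was lower in kidney cDC2, at 355, 471 and 435 CPM against 958, 1093 and 1028 CPM in spleen cDC2, a log2 difference of -1.30 ± 0.18 (SE; adjusted p = 0.00203).

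Of 24 tested genes shared by all conventional dendritic cells, 1 was higher (against 11.2% of all genes) and 7 lower (against 10.1%) in kidney cDC2, and without TMM scaling 11 were lower. Zbtb46, the transcription factor that marks the lineage, read 91.2, 132 and 135 CPM in kidney cDC2 and 229.5, 196 and 179 CPM in spleen cDC2. Flt3, the receptor for the growth factor that sustains these cells, read 388, 356 and 368 CPM in kidney cDC2 and 484, 455 and 477 CPM in spleen cDC2. Neither gene was called with edgeR and TMM scaling, although every kidney library lay below every spleen library for both. Zbtb46 was called lower without TMM scaling (log2 difference -1.145, adjusted p = 0.02997) and with limma on the authors' TPM values (-1.49, adjusted p = 0.0106), and Flt3 with limma (-1.07, adjusted p = 0.00664). Kit, the stem cell factor receptor, was lower in kidney cDC2, at 29.7, 40.1 and 61.3 CPM against 575, 679.8 and 689 CPM in spleen cDC2, with a log2 difference of -3.95 ± 0.24 (SE; adjusted p = 5.63e-05). Adam23, a surface protein of the ADAM family, was also lower (18.8, 23.1 and 30.8 CPM in kidney cDC2 against 326, 376 and 397 CPM in spleen cDC2). The cDC1 receptor Xcr1 stood at 5.56, 5.54 and 5.71 CPM in kidney cDC2 and 3.29, 5.71 and 5.67 CPM in spleen cDC2, and the summed cDC1 list reached 1218 to 1489 CPM in kidney cDC2 and 1151 to 1196 CPM in spleen cDC2, against 18810 to 19890 CPM in kidney cDC1. Within that list 7 of 16 tested genes were higher in kidney cDC2 (against 11.2% of all genes) and 1 lower (against 10.1%), among them Pianp, Ifi205, the adhesion integrin Itgae and the chemokine receptor Cxcr3.

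The genes behind the sort gates were read next. Itgax, which encodes CD11c, was lower in kidney cDC2, at 256, 281 and 357 CPM against 867, 876 and 826 CPM in spleen cDC2. Itgam, which encodes CD11b, was higher in kidney cDC2, at 271, 608 and 645 CPM against 202, 217 and 201 CPM in spleen cDC2, a log2 difference of 1.20 ± 0.27 (SE; adjusted p = 0.0158). That call was lost without pair 3 (log2 difference 0.96, adjusted p = 0.0653) and without TMM scaling (0.83, adjusted p = 0.102). Ptprc, which encodes CD45, was lower in kidney cDC2 (369, 969.7 and 889 CPM against 2386, 2597 and 2538 CPM in spleen cDC2), as was the macrophage marker Emr1, which encodes F4/80 (61.7, 38.4 and 68.05 CPM in kidney cDC2 against 273, 291 and 361 CPM in spleen cDC2). Fcgr1, which encodes CD64, read 29.3, 10.6 and 29.9 CPM in kidney cDC2 and 0.14, 1.74 and 1.63 CPM in spleen cDC2, a log2 difference of 4.27 ± 0.74 (SE; adjusted p = 0.00521). In these libraries Fcgr1 was thus higher in the cells that were sorted as CD64-. In the further kidney cDC2 libraries, whose names begin with BS, Fcgr1 read 1.68 and 7.13 CPM, and the first value lies within the spleen range. Clec9a itself read 0.18, 0.0469 and 0.127 CPM in kidney cDC2 and 0.14, 0.28 and 0.155 CPM in spleen cDC2, which is below the level of 3 reads (0.1408 to 0.2693 CPM per library) in every library but spleen library 2. It did not pass the filter.

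Of 24054 gene symbols, 11726 passed the filter on low counts, and 2500 of them (21.3%) were called. The calls were nearly even: 1315 genes (11.2%) were higher and 1185 (10.1%) lower in kidney cDC2, and the median log2 difference of all genes tested was -0.00045. All kidney libraries lay above all spleen libraries for 27.0% of the genes tested and below them for 26.1%. Without TMM scaling the median of all genes moved to -0.377, with 790 genes higher and 2116 lower, so the near-even split depends on the scaling. With the authors' TPM values and limma 522 genes were higher and 3293 lower, and in a fit over all 33 libraries 1691 were higher and 984 lower. The list counts, those above included, are to be read against these shares, which varied with transcript length. In the shortest bin 564 of 2932 genes were called higher and 130 lower. In the longest bin 202 of 2932 genes were called higher and 474 lower. The list counts were not matched for length.

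Among the 15 largest increases, many genes belong to the epithelium of the kidney tubule. Umod, which encodes uromodulin of the thick ascending limb, read 32.9, 37.3 and 43.2 CPM in kidney cDC2 and 0, 0.112 and 0 CPM in spleen cDC2. Calb1, the calcium-binding protein of the distal tubule, read 1.08, 77.7 and 122 CPM in kidney cDC2 and 0, 0 and 0.0777 CPM in spleen cDC2. Defb1, an epithelial defensin, read 2.96, 46.7 and 82.3 CPM in kidney cDC2 and 0 in every spleen library, at least 659.7-fold higher. Kidney library 1 was the lowest of the kidney group for all 3 of these genes. Klk1, Kng2, S100g, Tmem213, Wfdc15b, Hoxd8 and Sfrp1 were also in this set. In the 2 further kidney cDC2 libraries, whose names begin with BS and which carry another sort code, Umod read 1.68 and 1.78 CPM, Calb1 3.89 and 2.83 CPM and Defb1 0.863 and 1.89 CPM. Of 18 listed tubule markers, 6 passed the filter on low counts, Umod among them, and 5 of these were higher in kidney cDC2. A gene read in kidney alone could pass that filter, so this count carries little weight. The sum of the list was 336, 415.9 and 634.8 CPM in kidney cDC2 (GS) and 15.38 to 16.69 CPM in spleen cDC2. It was 96.09 and 107.3 CPM in kidney cDC2 (BS). The markers Lrp2, Cubn and Aqp1 stayed below 1 CPM in kidney cDC2. The part of tubule RNA in these results was not tested.

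The other large increases were Ccl17, Fcrls, Retnla, Col4a2 and Angptl2. Fcrls, an Fc receptor-like scavenger molecule known from microglia, read 23.9, 85.4 and 97.98 CPM in kidney cDC2 (GS), 21.2 and 45.4 CPM in kidney cDC2 (BS) and 0, 0 and 0.155 CPM in spleen cDC2. Angptl2, a secreted angiopoietin-like protein, read 8.62, 9.76 and 13.8 CPM in kidney cDC2 (GS), 9.88 and 9.39 CPM in kidney cDC2 (BS) and 0 in all spleen libraries, at least 161-fold higher in the GS libraries. Both genes were thus present in all 5 kidney libraries. Retnla, a secreted product of alternatively activated myeloid cells, was uneven, with 3.59, 1.17 and 34.4 CPM in kidney cDC2 (GS), 0.048 and 37.8 CPM in kidney cDC2 (BS) and 0 in spleen cDC2. Col4a2, a basement membrane collagen chain, read 8.98, 14.1 and 7.86 CPM in kidney cDC2 (GS), 21.3 and 38.8 CPM in kidney cDC2 (BS) and 0 in spleen cDC2.

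The 15 largest decreases were absent or nearly absent in kidney cDC2 (GS). Dtx1, Cdh17, Dscam and Esam, described with the Notch list, were 4 of them. Scn3a, a voltage-gated sodium channel subunit, read 0 in every kidney library and 52.7, 44.5 and 46.1 CPM in spleen cDC2, at least 768-fold lower. Sucnr1, the receptor for succinate, also read 0 in every kidney library and 27.4, 20.9 and 29.99 CPM in spleen cDC2, at least 419-fold lower. The BS kidney libraries likewise read 0 for both. Ryr3, an intracellular calcium release channel, read 0.0898, 0.563 and 0.317 CPM in kidney cDC2 and 100.04, 160.1 and 234 CPM in spleen cDC2, a log2 difference of -8.87 ± 0.39 (SE; adjusted p = 2.94e-05). Gpm6b, a membrane proteolipid, read 0, 0.845 and 0 CPM in kidney cDC2 and 90.2, 93.9 and 69.6 CPM in spleen cDC2. Dnajc22, Cdcp1, Bmp8a, Dpp10, Tmem132c, Cdhr3 and Slc44a5 completed the set. Each had no GS kidney library above 0.141 CPM and no spleen library below 7.54 CPM. The BS kidney libraries read 0 and 0.262 CPM for Dpp10, 0.528 and 0 CPM for Tmem132c, and 2.83 and 0.105 CPM for Gpm6b. All 30 of these largest differences kept their call and direction under every setting that could be computed for them.

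In the Notch list the members called lower in kidney cDC2 were Dtx1, Hes1, the ligands Jag1 and Dll4, and 8 genes known from splenic cDC2 (Esam, Cd4, Clec4a4, Cdh17, Dscam, Tbx21, Gpr4 and Ptger3). Those called higher were Notch1, Notch2, Rbpj, Dtx4, Psenen and Rftn1. That makes 12 of 34 tested members lower (against 10.1% of all genes) and 6 higher (against 11.2%), with a median log2 difference of -0.05. Dtx1, which encodes the ubiquitin ligase Deltex1 and is a classical Notch target (ENSMUSG00000029603.15, chr5:120680202-120711927 on GRCm38), had the largest decrease of the named genes. It read 0.0898, 0 and 0 CPM in kidney cDC2 and 487, 386 and 263 CPM in spleen cDC2. The 3 kidney libraries held 1 read of Dtx1 together and the 3 spleen libraries 17211, and the spleen level over the pooled kidney level was 18247 (exact 95% counting interval 3275 to 720700.0). The BS kidney libraries read 0 and 0.63 CPM.

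Hes1, the transcriptional repressor induced by Notch, was lower in kidney cDC2, at 7.001, 3.003 and 2.41 CPM against 124, 65.6 and 65.1 CPM in spleen cDC2, a log2 difference of -4.44 ± 0.25 (SE; adjusted p = 4.57e-05). Of the ligands, Jag1 read 0, 0.141 and 0.698 CPM in kidney cDC2 and 20.5, 28.1 and 29.8 CPM in spleen cDC2, a log2 difference of -6.63 ± 0.60 (SE; adjusted p = 0.000259). Dll4 was low in both groups, with 0, 0.188 and 0.0634 CPM in kidney cDC2 and 0.911, 1.01 and 2.797 CPM in spleen cDC2, and was also called lower. That call was lost without pair 3 (log2 difference -3.28, adjusted p = 0.158). No kidney library reached any spleen library for these 3 genes. The targets Hey1 (0.987, 0.751 and 0.444 CPM in kidney cDC2 and 0.771, 0.896 and 0 CPM in spleen cDC2) and Nrarp (0.718, 0.751 and 0.19 CPM in kidney cDC2 and 2.73, 1.46 and 0.622 CPM in spleen cDC2) were low in both organs and were not called. Dtx4, a relative of Dtx1, was higher in kidney cDC2, at 13.8, 16.05 and 14.3 CPM against 6.94, 3.36 and 3.73 CPM in spleen cDC2.

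The receptors were higher in kidney cDC2. Notch1 read 15.3, 27.3 and 46.9 CPM in kidney cDC2 and 1.05, 0.28 and 1.63 CPM in spleen cDC2, a log2 difference of 4.96 ± 0.49 (SE; adjusted p = 0.000376). Notch2, the receptor required by splenic cDC2, read 97.6, 231 and 261 CPM in kidney cDC2 and 56.7, 67.4 and 123 CPM in spleen cDC2, a log2 difference of 1.21 ± 0.24 (SE; adjusted p = 0.00933). Kidney library 1 was the lowest of its group for both receptors and, for Notch2, overlapped with spleen library 3. The Notch2 call was lost without pair 2 (log2 difference 0.93, adjusted p = 0.0725), without TMM scaling (0.84, adjusted p = 0.068) and without the pairing (1.25, adjusted p = 0.0512). Rbpj, the DNA-binding partner of the cleaved receptor, read 91.5, 94.97 and 122 CPM in kidney cDC2 and 31.6, 36.1 and 38.6 CPM in spleen cDC2, a log2 difference of 1.53 ± 0.20 (SE; adjusted p = 0.00144). Of the gamma-secretase that cleaves the receptor, the subunit gene Psenen was called higher, at 22.6, 9.81 and 6.72 CPM in kidney cDC2 against 5.82, 5.43 and 3.57 CPM in spleen cDC2, but its log2 difference was 0.87 without pair 1 and 0.87 without TMM scaling, both below the threshold. With limma on the authors' TPM values Notch2, Rbpj, Dtx4 and Psenen were not called (log2 differences 0.47, 0.41, 0.65 and 0.45). Psen2, Aph1a and Ncstn were not called. Ncstn lay close together in the organs, with 170.3, 178 and 177 CPM in kidney cDC2 and 183, 177 and 167 CPM in spleen cDC2 (95% interval of the log2 difference -0.43 to 0.42).

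Several genes known from splenic cDC2 were at or near 0 in kidney cDC2. Esam, an endothelial-type adhesion molecule (chr9:37528078-37538319), read 0, 0.985 and 0 CPM in kidney cDC2 and 102, 99.02 and 78.5 CPM in spleen cDC2, a log2 difference of -8.08 ± 0.75 (SE; adjusted p = 0.000275). Cd4 read 1.62, 5.07 and 4.69 CPM in kidney cDC2 and 259, 293 and 331 CPM in spleen cDC2, a log2 difference of -6.35 ± 0.34 (SE; adjusted p = 4.49e-05). Clec4a4, the lectin recognised by the DCIR2 antibody, read 3.41, 0.657 and 1.395 CPM in kidney cDC2 and 158, 166 and 186 CPM in spleen cDC2, a log2 difference of -6.77 ± 0.48 (SE; adjusted p = 0.000102). In each case the lowest spleen library was far above the highest kidney library. Cdh17, a cadherin (chr4:11758147-11817895), read 0 in all 3 kidney libraries and 31.1, 27.7 and 22.8 CPM in spleen cDC2, at least 437-fold lower. Dscam, an immunoglobulin-family adhesion molecule, read 0, 0.282 and 1.14 CPM in kidney cDC2 and 139, 143 and 154 CPM in spleen cDC2. Tbx21, the transcription factor T-bet, was lower at 17.95, 20.6 and 12.05 CPM in kidney cDC2 against 119.7, 75.8 and 85.7 CPM in spleen cDC2. Gpr4, a proton-sensing receptor, was lower at 12.1, 5.87 and 1.78 CPM in kidney cDC2 against 87.1, 90.1 and 51.6 CPM in spleen cDC2. In these bulk libraries a smaller share of such cells and less RNA per cell cannot be told apart.

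**Figure D1:**
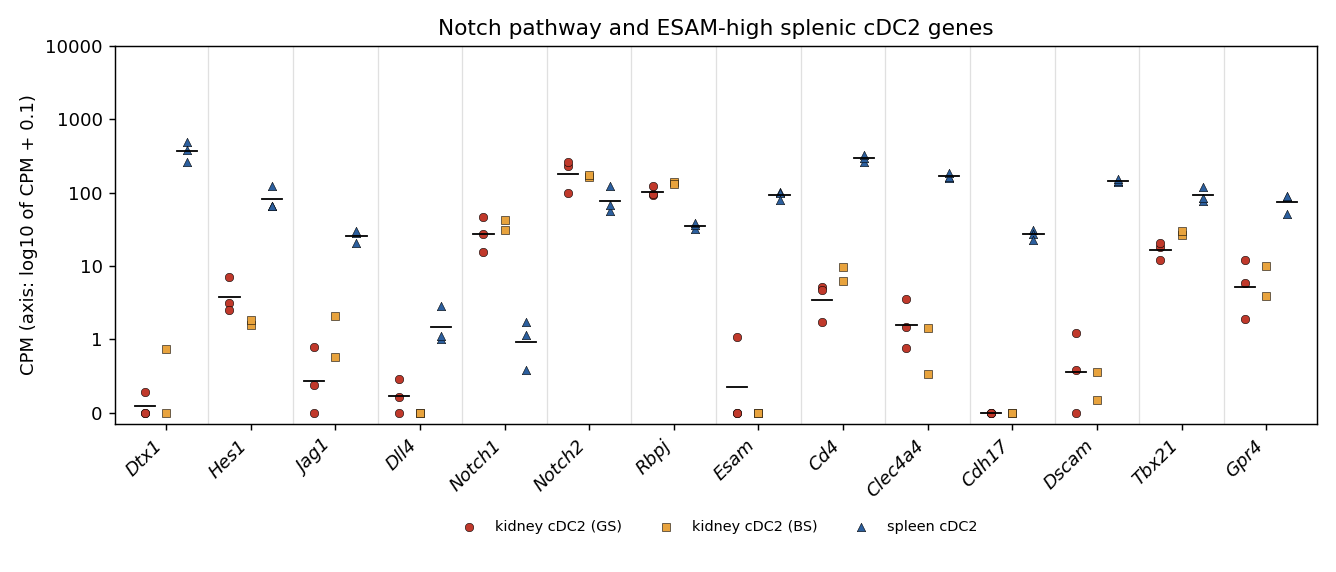
CPM of genes of the Notch list in each library, on a log axis with 0.1 added, for kidney cDC2 (GS, red circles), kidney cDC2 (BS, orange squares) and spleen cDC2 (blue triangles). Each point is a library and lines are means of the plotted log values over 3 libraries. Notch1 and Rbpj lie higher in kidney, while Dtx1, Hes1, Jag1, Esam, Cd4, Clec4a4, Cdh17 and Dscam lie lower.

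The 250 bases before the RefSeq start (GRCm38.p6) were searched for the core of the RBPJ binding motif, TGGGAA, on both strands. No other motif was searched, so overlaps with other motifs were not counted. The motif occurred in 20.1% of the 8910 tested genes with a listed promoter, in 21.8% of 974 genes called higher and in 17.9% of 893 genes called lower. Of the 12 Notch-list genes called lower, 7 had a listed promoter and 2, Gpr4 and Tbx21, held the motif. The 3 windows are shown because they belong to the target gene with the largest decrease and to the 2 lower members with a match. Capitals mark the motif, which lies on the other strand in both Gpr4 and Tbx21. The Dtx1 window lies within the GENCODE span of the gene given above, whose start is farther upstream than the RefSeq start used here.
Dtx1, chr5:120711670-120711919, minus strand: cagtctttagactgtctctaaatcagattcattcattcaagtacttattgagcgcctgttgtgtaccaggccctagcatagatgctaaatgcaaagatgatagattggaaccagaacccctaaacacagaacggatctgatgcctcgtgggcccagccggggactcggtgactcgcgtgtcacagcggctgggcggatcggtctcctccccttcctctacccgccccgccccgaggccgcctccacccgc
Gpr4, chr7:19212288-19212537, plus strand: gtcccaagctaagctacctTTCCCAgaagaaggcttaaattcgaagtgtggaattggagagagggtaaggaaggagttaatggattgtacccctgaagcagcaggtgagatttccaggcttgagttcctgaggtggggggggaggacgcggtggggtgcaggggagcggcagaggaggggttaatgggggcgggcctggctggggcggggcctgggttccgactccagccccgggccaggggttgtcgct
Tbx21, chr11:97115332-97115581, minus strand: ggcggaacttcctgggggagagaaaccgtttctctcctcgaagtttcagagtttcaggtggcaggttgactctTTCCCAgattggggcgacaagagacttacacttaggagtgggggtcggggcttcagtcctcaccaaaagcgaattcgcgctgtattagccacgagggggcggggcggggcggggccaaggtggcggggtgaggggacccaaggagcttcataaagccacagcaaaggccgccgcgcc

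Kidney cDC2 carried a different set of lectins. Of 27 tested C-type lectins and uptake receptors 13 were higher and 7 lower in kidney cDC2, with a median log2 difference of 1.23, and the summed level was 7401, 7785 and 7308 CPM in kidney cDC2 against 1125, 1494 and 1543 CPM in spleen cDC2. Mgl2 (chr11:70130329-70137550) encodes a receptor for galactose-type sugars. It read 774, 1009.8 and 1111 CPM in kidney cDC2 and 5.61, 4.54 and 4.195 CPM in spleen cDC2, a log2 difference of 7.64 ± 0.30 (SE; adjusted p = 2.63e-05). Clec10a (chr11:70156197-70170834), its neighbour on the same chromosome and a close paralog, read 1049, 939 and 812 CPM in kidney cDC2 and 4.63, 4.42 and 6.45 CPM in spleen cDC2, a log2 difference of 7.51 ± 0.29 (SE; adjusted p = 2.63e-05). The 2 groups lay far apart for both genes. Reads with more than 1 mapping place are not in these counts, so the levels of close paralogs such as Mgl2 and Clec10a, or of the Cd209 family, are uncertain.

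Cd209a, the mouse counterpart of DC-SIGN, read 3904, 4278 and 3777 CPM in kidney cDC2 and 272, 373 and 383 CPM in spleen cDC2, a log2 difference of 3.56 ± 0.21 (SE; adjusted p = 5.04e-05). Spleen cDC2 thus carried more Cd209a than Mgl2 or Clec10a reads, and every kidney library was above every spleen library. Clec4b1, a dendritic cell activating lectin, read 564, 427 and 396 CPM in kidney cDC2 and 13.3, 12.4 and 10.7 CPM in spleen cDC2. Cd163, the scavenger receptor for haemoglobin complexes, read 33.03, 102 and 213 CPM in kidney cDC2 and 0.981, 0.84 and 4.35 CPM in spleen cDC2, a log2 difference of 5.86 ± 0.39 (SE; adjusted p = 7.56e-05). Mrc1, the mannose receptor, read 13.01, 57.9 and 36.1 CPM in kidney cDC2 and 0.701, 3.25 and 3.34 CPM in spleen cDC2. Cd163 and Mrc1 are also markers of resident macrophages, and kidney library 1 was the lowest kidney library for both. Lower in kidney cDC2 were Clec4a4, given above, and Clec7a, the beta-glucan receptor dectin-1, at 93.9, 169 and 173 CPM against 273, 465 and 427 CPM in spleen cDC2.

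The chemokines that were tested were higher in kidney cDC2 with 1 exception. Of the 27 listed, 14 passed the filter on low counts, and 13 of these were higher and 1 lower, with a median log2 difference of 3.24, and the sum was 6698, 5291 and 4872 CPM in kidney cDC2 against 952.9, 1591 and 2192 CPM in spleen cDC2. Ccl17, a ligand of CCR4 that draws T cells, read 375, 81.5 and 95.5 CPM in kidney cDC2 and 0.0701, 0.448 and 0.0777 CPM in spleen cDC2, a log2 difference of 9.41 ± 0.66 (SE; adjusted p = 9.66e-05). Its kidney libraries were uneven, with library 1 highest. Without pair 1 the log2 difference was 8.19. Ccl22, the second CCR4 ligand, read 209, 246 and 122 CPM in kidney cDC2 and 13.2, 7.84 and 13.4 CPM in spleen cDC2. The monocyte attractants Ccl2 (152, 126 and 73.2 CPM in kidney cDC2 and 1.75, 2.8 and 2.95 CPM in spleen cDC2) and Ccl7 (20.9, 21.2 and 18.9 CPM in kidney cDC2 and 0.0701, 0.336 and 0.777 CPM in spleen cDC2) differed likewise. The CXCR3 ligand Cxcl9 was tight within each group, at 115, 114 and 112 CPM in kidney cDC2 and 14.2, 11.7 and 15.2 CPM in spleen cDC2. Ccl5, which attracts T cells and monocytes, was the exception, at 62.4, 36.4 and 85.04 CPM in kidney cDC2 against 181, 271 and 375 CPM in spleen cDC2, a log2 difference of -2.19 ± 0.28 (SE; adjusted p = 0.00144).

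The receptors that steer dendritic cells changed in both directions, with 13 of 26 tested members higher and 4 lower. Ccr1, a receptor for inflammatory CC chemokines, read 353, 495 and 380.4 CPM in kidney cDC2 and 3.51, 5.32 and 3.65 CPM in spleen cDC2, a log2 difference of 6.63 ± 0.23 (SE; adjusted p = 2.03e-05). Ccr2, the receptor for CCL2, read 375, 774 and 692 CPM in kidney cDC2 and 30.2, 24.98 and 18.02 CPM in spleen cDC2. Ltb4r1, the leukotriene B4 receptor, read 333, 229.7 and 270.4 CPM in kidney cDC2 and 9.32, 8.63 and 12.3 CPM in spleen cDC2. All 3 were low in spleen and separated the groups fully. Ccr7, which guides migration to the T cell zone, was lower at 108, 136 and 131 CPM in kidney cDC2 against 718, 1059 and 1176 CPM in spleen cDC2, a log2 difference of -2.95 ± 0.20 (SE; adjusted p = 8.54e-05). Ccr6, the receptor for CCL20, was lower at 3.68, 1.69 and 1.46 CPM in kidney cDC2 against 55.03, 50.3 and 69.8 CPM in spleen cDC2. Gpr183, the oxysterol receptor that positions splenic cDC2, overlapped between the organs, at 463, 375 and 272 CPM in kidney cDC2 and 338, 371 and 361 CPM in spleen cDC2 (95% interval of the log2 difference -0.49 to 0.53).

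**Figure D2:**
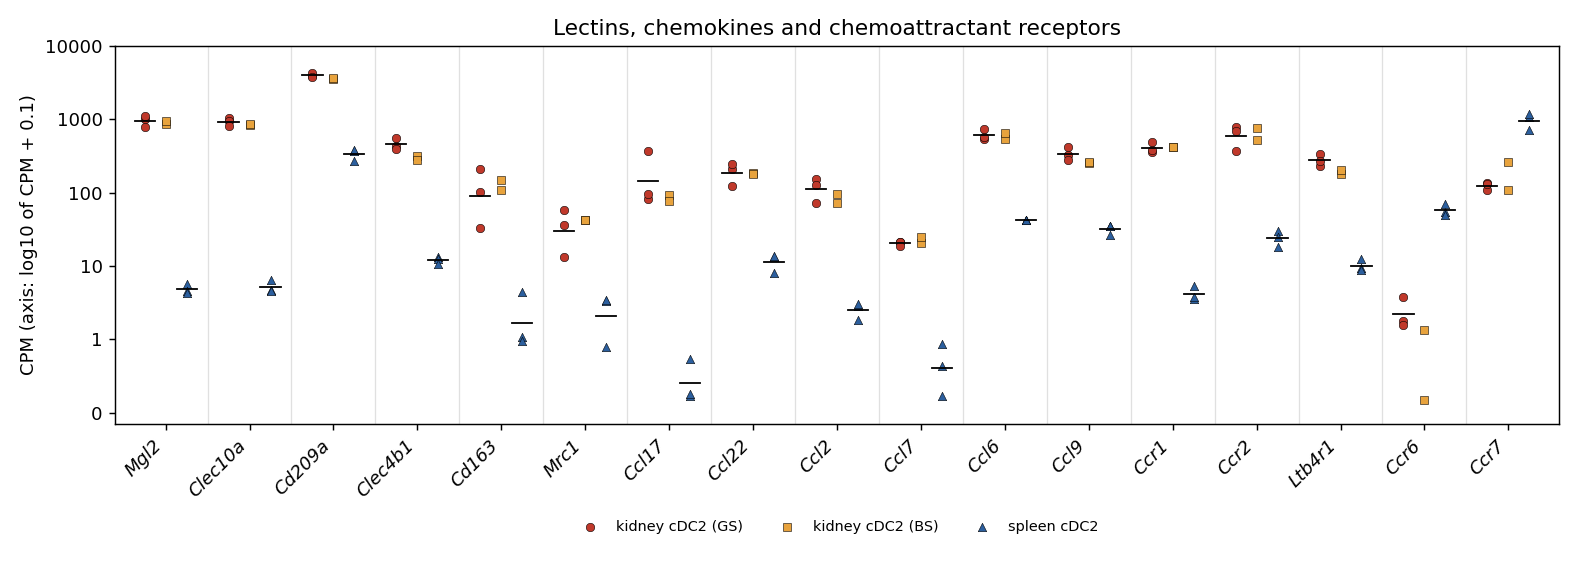
CPM of lectins, chemokines and chemoattractant receptors in each library, on a log axis with 0.1 added, for kidney cDC2 (GS, red circles), kidney cDC2 (BS, orange squares) and spleen cDC2 (blue triangles), with lines at the mean of the plotted log values over 3 libraries. Every gene shown but Ccr6 and Ccr7 lies higher in the GS kidney libraries than in spleen.

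Of 39 tested genes of maturation and costimulation 7 were higher, 17 lower and 15 not called in kidney cDC2, with a median log2 difference of -1.02. Cd274, which encodes the checkpoint ligand PD-L1, read 25.3, 40.7 and 29.7 CPM in kidney cDC2 and 374, 369 and 360.4 CPM in spleen cDC2, a log2 difference of -3.55 ± 0.23 (SE; adjusted p = 7.14e-05). Pdcd1lg2, which encodes PD-L2, read 3.59, 3.33 and 4.31 CPM in kidney cDC2 and 42.6, 41.7 and 66.1 CPM in spleen cDC2. Relb, the NF-kappaB subunit needed by splenic cDC2, read 103, 95.7 and 79.8 CPM in kidney cDC2 and 593, 601 and 508 CPM in spleen cDC2. These 3 genes separated the groups with no overlap, as did Fscn1, the actin bundler of mature dendritic cells (35.3, 44.3 and 35.8 CPM in kidney cDC2 and 222, 218 and 205 CPM in spleen cDC2). The costimulatory ligands Cd80 and Cd86 differed by a log2 of -1.11 ± 0.22 and -1.08 ± 0.20 (SE) and were called lower. The call was lost for Cd80 without pair 3 (log2 difference -0.94) and for Cd86 without pair 1 (-0.97).

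Other members were higher in kidney cDC2. Socs3, the inhibitor of STAT3-coupled cytokine receptors, read 1234, 2935 and 1961 CPM in kidney cDC2 and 32.7, 33.7 and 40.2 CPM in spleen cDC2, a log2 difference of 5.76 ± 0.31 (SE; adjusted p = 4.49e-05). Tnfsf9, which encodes the costimulatory 4-1BB ligand, read 1523, 2045 and 1276 CPM in kidney cDC2 and 36.5, 58.7 and 68.8 CPM in spleen cDC2. Tnip3, an inhibitor of NF-kappaB signalling, read 192, 296 and 207 CPM in kidney cDC2 and 2.45, 2.74 and 2.72 CPM in spleen cDC2, a log2 difference of 6.43 ± 0.26 (SE; adjusted p = 2.65e-05). Each was far above spleen in all 3 kidney libraries. Cd83, a maturation marker with a high level in both organs, overlapped at 3598, 5350.0 and 3507 CPM in kidney cDC2 and 3289, 4248 and 3421 CPM in spleen cDC2 (95% interval of the log2 difference -0.25 to 0.58).

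Among 30 tested NF-kappaB target genes 7 were higher and 12 lower in kidney cDC2, or 4 and 14 without TMM scaling. Nfkbia, the inhibitor IkappaB-alpha, was higher at 4568, 3935 and 2891 CPM against 626, 729.8 and 774 CPM in spleen cDC2, whereas Tnfaip2 was lower at 5.12, 18.9 and 15.98 CPM against 66.6, 147 and 142 CPM in spleen cDC2. Of 38 tested interferon-stimulated genes 7 were higher and 3 lower. This balance turned to 5 higher and 6 lower without TMM scaling, and without pair 3 it was 6 and 6. Of 34 tested cell cycle genes 0 were higher and 1, the mitotic kinesin Kif11, was lower by edgeR and by DESeq2. At an unadjusted p below 0.05, 4 cell cycle genes were higher and 11 lower, and without TMM scaling 0 were called higher and 7 lower. Kif11 fell below the log2 threshold without pair 1 (log2 difference -0.70).

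Cytokines split by member, with 8 of 28 tested genes higher and 6 lower. Osm, a cytokine of the IL-6 family, read 136, 215 and 192 CPM in kidney cDC2 and 12.1, 16.3 and 16.005 CPM in spleen cDC2, a log2 difference of 3.60 ± 0.21 (SE; adjusted p = 4.77e-05). Lif, of the same family, read 4.49, 20.4 and 9.64 CPM in kidney cDC2 and 0.0701, 0.056 and 1.01 CPM in spleen cDC2. Tnfsf13b, the B cell survival factor BAFF, was higher at 24.3, 29.9 and 23.97 CPM in kidney cDC2 against 2.66, 1.74 and 1.32 CPM in spleen cDC2. Lower were Il12b, the shared subunit of IL-12 and IL-23 (0, 10.7 and 2.35 CPM in kidney cDC2 and 24.8, 44.6 and 51.1 CPM in spleen cDC2), and the angiogenic factor Vegfa (11.8, 19.1 and 15.8 CPM in kidney cDC2 and 123, 164 and 188 CPM in spleen cDC2). Il1b overlapped between the organs at 3739, 4105 and 1902 CPM in kidney cDC2 and 2771, 3553 and 3792 CPM in spleen cDC2 (95% interval of the log2 difference -0.79 to 0.57).

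Cytokine receptors changed in both directions, with 8 of 40 tested members higher and 8 lower, or 13 lower without TMM scaling. Il1rl1, the receptor for IL-33, read 26.8, 94.7 and 70.6 CPM in kidney cDC2 and 0, 0 and 0.777 CPM in spleen cDC2, a log2 difference of 8.18 ± 0.75 (SE; adjusted p = 0.000267). Kidney library 1 was its lowest kidney library and still exceeded every spleen library. Il18rap, an IL-18 receptor chain, read 21.3, 13.7 and 20.04 CPM in kidney cDC2 and 1.12, 1.46 and 1.09 CPM in spleen cDC2. Csf3r, the receptor for G-CSF, read 0.0898, 1.55 and 0.888 CPM in kidney cDC2 and 11.1, 18.3 and 17.9 CPM in spleen cDC2.

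Of 28 tested pattern receptors 4 were higher and 12 lower in kidney cDC2. Tlr7, the endosomal sensor of single-stranded RNA, read 0.18, 1.08 and 0.698 CPM in kidney cDC2 and 78.6, 61.6 and 83.7 CPM in spleen cDC2, a log2 difference of -6.74 ± 0.46 (SE; adjusted p = 8.54e-05). Tlr5, the flagellin receptor, read 0.0898, 0.516 and 0.317 CPM in kidney cDC2 and 23.3, 29.4 and 23.2 CPM in spleen cDC2. Nod1, a cytosolic sensor of bacterial cell walls, read 10.6, 8.91 and 9.83 CPM in kidney cDC2 and 307, 295 and 276 CPM in spleen cDC2, a log2 difference of -4.91 ± 0.22 (SE; adjusted p = 2.94e-05). All 3 were lower in every kidney library than in any spleen library. Other members were higher in kidney cDC2. Cd14, the lipopolysaccharide co-receptor, read 119, 159 and 107 CPM in kidney cDC2 and 11.5, 16.6 and 12.2 CPM in spleen cDC2. Tlr4 read 23.5, 37.9 and 42.4 CPM in kidney cDC2 and 6.87, 5.99 and 5.28 CPM in spleen cDC2, and Tlr2 read 291, 586 and 498 CPM in kidney cDC2 and 104, 156 and 143 CPM in spleen cDC2. Tlr1 and Tlr6, the partners of TLR2, were lower, with Tlr1 at 29.3, 33.7 and 30.6 CPM in kidney cDC2 against 105, 105 and 105 CPM in spleen cDC2 and Tlr6 at 2.15, 6.76 and 3.61 CPM in kidney cDC2 against 10.2, 14.95 and 11.03 CPM in spleen cDC2.

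Fc and complement receptors were higher for 9 of 21 tested members and lower for 4. Fcgr2b, the inhibitory IgG receptor, read 915, 1264 and 1182 CPM in kidney cDC2 and 29.4, 37.1 and 50.6 CPM in spleen cDC2, a log2 difference of 4.86 ± 0.23 (SE; adjusted p = 3.15e-05). Fcgr3, an activating IgG receptor, read 80.96, 97.5 and 125 CPM in kidney cDC2 and 10.1, 9.41 and 8.55 CPM in spleen cDC2. Kidney library 1 was the lowest kidney library for both, without reaching the spleen range.

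Adhesion genes changed in both directions, with 11 of 33 tested members higher and 12 lower. Cdh1, which encodes E-cadherin, read 6.55, 9.62 and 18.5 CPM in kidney cDC2 (GS), 0.24 and 4.62 CPM in kidney cDC2 (BS) and 0.421, 0.056 and 0 CPM in spleen cDC2. Cdh1 is also made by tubule epithelium, and the 2 BS libraries were lower than the lowest GS library. F11r, the junctional molecule JAM-A, read 371, 504 and 323 CPM in kidney cDC2 and 18.5, 23.9 and 8.55 CPM in spleen cDC2. Vcam1, the ligand of the integrin VLA-4, was lower at 2.78, 0.891 and 0.888 CPM in kidney cDC2 against 25.4, 37.4 and 35.7 CPM in spleen cDC2.

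Of 24 tested members of the presentation list 9 were higher and 2 lower in kidney cDC2. The number higher was 4 without pair 1 and 4 without TMM scaling. Cst3, which encodes cystatin C, an inhibitor of the cathepsins that process antigen, read 15343, 7256 and 8104 CPM in kidney cDC2 and 683, 827 and 826 CPM in spleen cDC2. Its log2 difference was 3.63 ± 0.31 (SE; adjusted p = 0.000199) and 3.21 without pair 1. H2-DMb1, part of the peptide-loading chaperone H2-M, read 2527, 1350.1 and 1226 CPM in kidney cDC2 and 345, 379.97 and 359 CPM in spleen cDC2. The class II chain gene H2-Ab1 read 64707, 35489 and 33359 CPM in kidney cDC2 and 16800.0, 18160.0 and 17484 CPM in spleen cDC2. Every kidney library was above every spleen library for these 3 genes, and library 1 was the highest. The log2 difference of H2-Ab1 was 1.28 ± 0.25 (SE; adjusted p = 0.00866), and it was below the log2 threshold of 1 without pair 1 (0.95) and without TMM scaling (0.90). H2-Eb2, a second beta chain gene, was lower at 5.92, 6.29 and 5.83 CPM in kidney cDC2 against 101, 92.97 and 177 CPM in spleen cDC2, a log2 difference of -4.30 ± 0.29 (SE; adjusted p = 8.13e-05). Rfx5, a transcription factor of class II promoters, was lower too, at 15.7, 35.3 and 33.3 CPM in kidney cDC2 against 81.2, 95.2 and 79.9 CPM in spleen cDC2.

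Of 32 tested genes of sterol and fatty acid synthesis 14 were higher and 0 lower in kidney cDC2 by edgeR and by DESeq2, or 7 higher without TMM scaling. At an unadjusted p below 0.05, 18 were higher and 1 lower. Fads1, a fatty acid desaturase, read 48.02, 63.1 and 78.3 CPM in kidney cDC2 and 9.25, 8.91 and 9.63 CPM in spleen cDC2. Every kidney library was above every spleen library. In the lipid handling list 7 of 22 tested genes were higher and 3 lower, or 4 and 5 without TMM scaling. Plin2, the coat protein of lipid droplets, read 279, 199 and 146 CPM in kidney cDC2 and 18.5, 21.2 and 10.2 CPM in spleen cDC2. Apoe, the carrier of cholesterol, was called lower with kidney values of 117, 11.7 and 5.96 CPM against 145, 146 and 68.99 CPM in spleen cDC2. Its kidney library 1 lay within the spleen range, and the call was lost without the pairing (log2 difference -1.43, adjusted p = 0.271).

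Glycolysis and hypoxia genes were higher for 7 of 33 tested members and lower for 3, or higher for 3 without TMM scaling. Aldoc, a glycolytic aldolase, read 50.9, 52.9 and 40.6 CPM in kidney cDC2 and 2.03, 3.86 and 2.797 CPM in spleen cDC2, a log2 difference of 4.07 ± 0.29 (SE; adjusted p = 9.66e-05). Oxidative phosphorylation had 10 of 45 tested genes higher and 0 lower, and cytosolic ribosomal proteins 17 of 57 higher and 0 lower. No member of either list was lower at an unadjusted p below 0.05 or by DESeq2. Both counts depended on pair 1 and on the scaling: without pair 1 the number higher was 0 for oxidative phosphorylation and 1 for ribosomal proteins, without pair 2 it was 22 and 29, and without TMM scaling 0 for both. At an unadjusted p below 0.05, 32 and 34 members were higher. The summed ribosomal protein list was 11660, 5930 and 6981 CPM in kidney cDC2 against 3716, 4024 and 4659 CPM in spleen cDC2.

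Of 12 tested retinoid genes 5 were higher and 0 lower by edgeR and by DESeq2, or 3 higher without TMM scaling, and at an unadjusted p below 0.05 the counts were 6 and 0. Dhrs9, a retinol-oxidising enzyme, read 6.73, 16.8 and 13.4 CPM in kidney cDC2 and 1.19, 1.96 and 3.42 CPM in spleen cDC2. Of 16 tested TGF-beta genes 2 were higher and 4 lower. Pmepa1, an inhibitor of this pathway that TGF-beta induces, read 30.2, 15.2 and 11.5 CPM in kidney cDC2 and 0.771, 0.728 and 0.699 CPM in spleen cDC2. Of 12 tested genes of the response to high salt 3 were higher and 3 lower, or 2 and 1 without pair 2. Nfat5, its transcription factor, was called lower at 18.4, 19.6 and 23.8 CPM in kidney cDC2 against 32.5, 46.9 and 45.8 CPM in spleen cDC2, a call that was lost without pair 2 (log2 difference -0.88, adjusted p = 0.097) or pair 3 (-1.04, adjusted p = 0.0515). Slc12a2, a sodium, potassium and chloride cotransporter, was lower at 0.18, 2.63 and 4.31 CPM in kidney cDC2 against 173, 175 and 199 CPM in spleen cDC2.

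Of 49 tested transcription factors of myeloid cells 10 were higher and 9 lower, or 6 and 18 without TMM scaling and 6 and 10 without pair 2. Id3, an inhibitor of E proteins, read 69.02, 45.2 and 37.5 CPM in kidney cDC2 and 4.77, 4.03 and 1.79 CPM in spleen cDC2, and Batf2 read 14.9, 9.34 and 11.7 CPM in kidney cDC2 and 0.771, 0.728 and 0.622 CPM in spleen cDC2. Lower were Spic, the factor of red pulp macrophages (0.0898, 0.516 and 0.571 CPM in kidney cDC2 and 10.9, 23.1 and 22.9 CPM in spleen cDC2), and Tcf7, the Wnt-responsive factor TCF-1 (2.15, 4.88 and 4.31 CPM in kidney cDC2 and 79.1, 85.9 and 64.5 CPM in spleen cDC2). Spi1, which encodes the lineage factor PU.1, was not called, with a 95% interval of the log2 difference of -0.63 to 0.31.

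Of 17 tested heat shock genes 11 were higher and 0 lower in kidney cDC2 by edgeR and by DESeq2 (13 and 1 at an unadjusted p below 0.05), with a median log2 difference of 1.55 and a sum of 12840, 13890 and 14930 CPM in kidney cDC2 against 4423, 3838 and 3730 CPM in spleen cDC2. Dnajb1, a co-chaperone, read 1703, 1778 and 1874 CPM in kidney cDC2 and 268, 158 and 172 CPM in spleen cDC2, a log2 difference of 3.20 ± 0.24 (SE; adjusted p = 0.000121). Hspa1a and Hspa1b, near-identical copies of the inducible HSP70 gene whose reads cannot be assigned with certainty, were both higher. Of 29 tested immediate early genes 9 were higher and 6 lower, or 6 and 8 without TMM scaling. Atf3 was higher at 4489, 5682 and 4233 CPM in kidney cDC2 against 759, 1007 and 962 CPM in spleen cDC2, while Nr4a3 was lower at 7.63, 16.8 and 20.4 CPM in kidney cDC2 against 78.6, 134 and 198 CPM in spleen cDC2. Heat shock and immediate early genes also respond to tissue dissociation. The part of dissociation in the chemokine, Socs3 and NF-kappaB results was not tested.

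**Figure D3:**
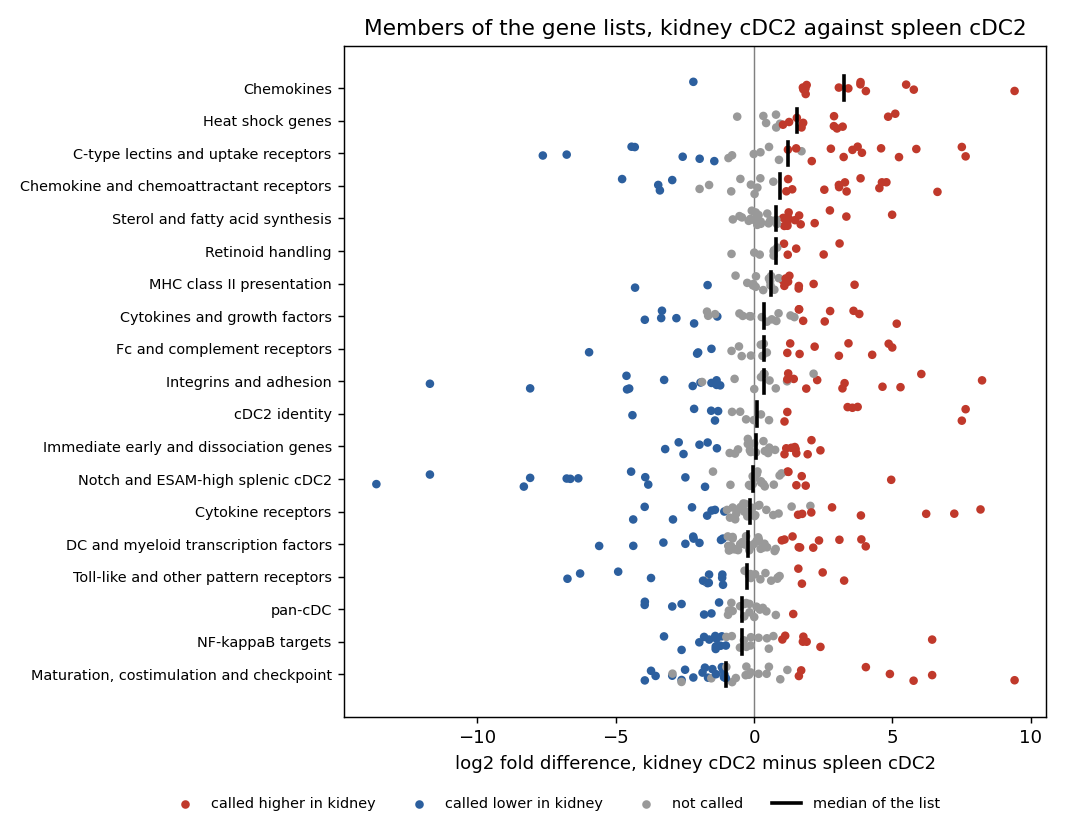
Log2 differences, kidney cDC2 minus spleen cDC2, of the tested members of 19 gene lists. Each point is a gene, coloured by its call, and black bars are list medians, from 3.24 for chemokines to -1.02 for maturation genes.

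Markers of other cell types were read in the same libraries. The macrophage list summed to 2469, 2028 and 2008 CPM in kidney cDC2 and 1615 to 1775 CPM in spleen cDC2, with 6 of 20 tested members higher and 4 lower. Of its defining genes, Fcgr1 was higher as given above, and Mertk was lower. Mertk read 0.0898, 0.375 and 0.444 CPM in kidney cDC2 and 0.771, 1.904 and 2.797 CPM in spleen cDC2, a call that was lost without pair 2 (log2 difference -2.75, adjusted p = 0.13) or pair 3 (-2.56, adjusted p = 0.205). C1qa read 40.3, 5.11 and 7.67 CPM in kidney cDC2 and 18.02, 21.4 and 20.8 CPM in spleen cDC2. Kidney library 1 had the highest C1qa of all 6 libraries, and without pair 1 C1qa was called lower (log2 difference -1.76, adjusted p = 0.000644). For monocytes 9 of 18 tested members were higher and 4 lower, with a sum of 7429 to 10530 CPM in kidney cDC2 and 6787 to 7043 CPM in spleen cDC2, and Ly6c2 read 6.91, 2.02 and 4.38 CPM in kidney cDC2 and 0.0701, 0.224 and 0.311 CPM in spleen cDC2. The macrophage list holds Cd14, Cd163 and Mrc1, and the monocyte list Ccr2, and the part of such cells in those results was not tested.

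The B cell list summed to 54.6 to 86.7 CPM in kidney cDC2 and 225.4 to 433.7 CPM in spleen cDC2, and its defining gene Ms4a1 read 0, 1.55 and 0.19 CPM in kidney cDC2 and 18.7, 22.6 and 20.1 CPM in spleen cDC2. Of 9 tested members 1 was higher and 4 lower. Of 18 listed T and NK cell genes, 12 passed the filter on low counts, and 7 of these were higher and 1 lower. A gene read in 1 organ alone could pass that filter. The list summed to 52.5 to 103.8 CPM in kidney cDC2 and 48.86 to 63.86 CPM in spleen cDC2. Cd3e read 20.5, 8.49 and 6.41 CPM in kidney cDC2 and 1.12, 0.336 and 0.622 CPM in spleen cDC2, with kidney library 1 highest. Siglech, a marker of plasmacytoid dendritic cells and of their precursors, read 49.4, 45.98 and 34.5 CPM in kidney cDC2 and 2.17, 1.68 and 0.544 CPM in spleen cDC2, while Ccr9, another such marker, read 0, 0.938 and 0.698 CPM in kidney cDC2 and 2.59, 5.601 and 6.84 CPM in spleen cDC2. Of 9 tested plasmacytoid markers 3 were higher and 3 lower, with a sum of 413.3 to 565.2 CPM in kidney cDC2 and 349.7 to 445.6 CPM in spleen cDC2. The list holds Klk1, which the tubule also makes. The red pulp macrophage list summed to 1263 to 1998 CPM in kidney cDC2 and 301 to 437.6 CPM in spleen cDC2, with 4 of 10 tested genes higher and 5 lower. Treml4 was lower at 7.72, 2.53 and 3.11 CPM in kidney cDC2 against 84.2, 72.6 and 91.6 CPM in spleen cDC2, and Spic and Vcam1 were lower as given above. The higher members were Trf, Hpgd, Hmox1 and Cd163, and Trf alone had 986, 1514 and 1088 CPM in kidney cDC2 and 134, 188 and 143 CPM in spleen cDC2. The endothelial list summed to 39.22 to 56.76 CPM in kidney cDC2 and 100 to 115.9 CPM in spleen cDC2, with 2 of 5 tested members higher and 1, Pecam1, lower. The neutrophil list summed to 2.487 to 8.437 CPM in kidney cDC2 and 90.43 to 148.3 CPM in spleen cDC2, with 2 of 3 tested members lower. The mast cell list summed to 2.537 to 6.642 CPM in kidney cDC2 and 17.71 to 21.84 CPM in spleen cDC2. Of 4 tested fibroblast genes edgeR called 0 and DESeq2 1 (1 at an unadjusted p below 0.05), and no erythroid gene passed the filter.

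**Figure D4:**
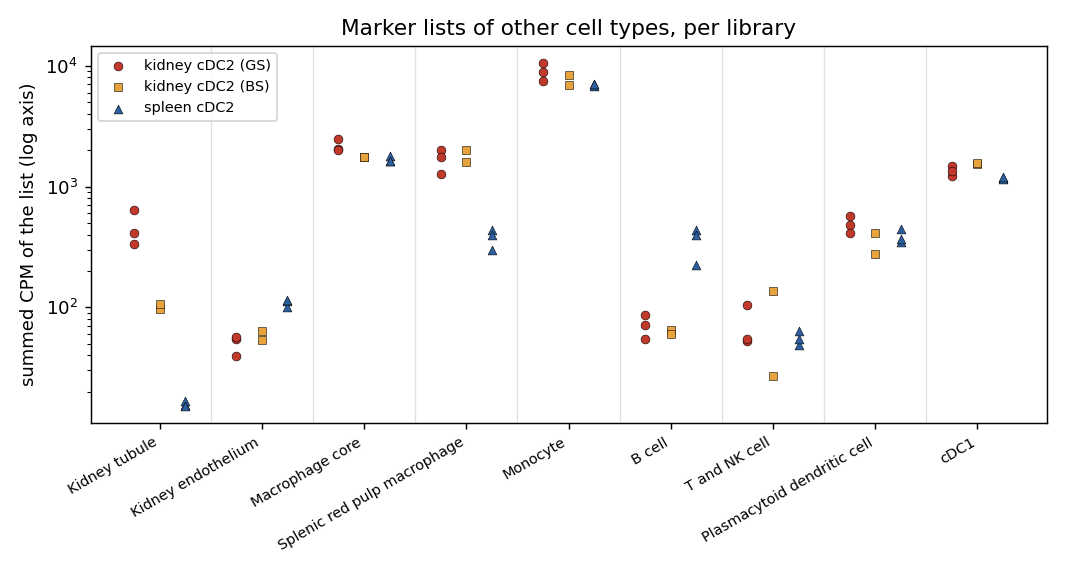
Summed CPM of marker lists in each library, on a log axis, for kidney cDC2 (GS, red circles), kidney cDC2 (BS, orange squares) and spleen cDC2 (blue triangles). The tubule list lies at 336 to 634.8 CPM in the GS kidney libraries and at 15.38 to 16.69 CPM in spleen, and the B cell list lies higher in spleen.

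Whether these differences were shared by the other dendritic cell type was tested with kidney cDC1 and spleen cDC1 from the same sorts, which do not share libraries with cDC2. Of 12338 genes tested, 830 (6.73%) had a kidney-spleen difference in cDC2 that differed from that in cDC1 by an adjusted p below 0.05 and an absolute log2 of at least 1: 505 (4.09%) in the positive and 325 (2.63%) in the negative direction. The count was 297 without pair 2 and 259 without pair 3. Clec10a, Tnfsf9 and Socs3 had increases in cDC2 that were larger than the differences in cDC1 by this test, and none of them was called in cDC1. Clec10a averaged 0.695 ± 0.195 CPM in kidney cDC1 and 1.196 ± 0.759 CPM in spleen cDC1 (SD, n = 3 each), against 933 ± 119 CPM in kidney cDC2 and 5.17 ± 1.11 CPM in spleen cDC2. Its difference between the types was 8.36 ± 0.50 (SE; adjusted p = 1.01e-05). Socs3 averaged 33.4 ± 13.4 CPM in kidney cDC1 and 22.2 ± 5.95 CPM in spleen cDC1, and the difference between the types was 5.25 ± 0.48 (SE; adjusted p = 7.57e-05). Cd14 moved in opposite directions, with 12.997 ± 2.46 CPM in kidney cDC1 and 32.4 ± 3.99 CPM in spleen cDC1, and a difference of 4.58 ± 0.22 (SE; adjusted p = 4.15e-06).

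For several Notch genes the difference also depended on the cell type. Dtx1 averaged 0.215 ± 0.268 CPM in kidney cDC1 and 0.885 ± 0.286 CPM in spleen cDC1 (SD, n = 3 each), and the difference between the types was -11.90 ± 1.29 (SE; adjusted p = 0.000245). Without pair 2 this call was lost (log2 -9.22, adjusted p = 0.169). Hes1 was lower in kidney in both types, with 15.3 ± 5.76 CPM in kidney cDC1 and 46.4 ± 9.02 CPM in spleen cDC1, and the decrease was larger in cDC2 by a log2 of -2.80 ± 0.39 (SE; adjusted p = 0.00119). Notch1 was higher in kidney in both types, with a larger increase in cDC2 by 3.08 ± 0.56 (SE; adjusted p = 0.00589), a call that was lost without pair 3 at a log2 of 3.09 (adjusted p = 0.14). Pdcd1lg2 differed by -4.53 ± 0.39 (SE; adjusted p = 6.28e-05).

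For Ccr2, F11r, Clec4b1 and Nod1, which had large differences in both types, no difference between the types passed the test with edgeR. Ccr2 averaged 789 ± 275 CPM in kidney cDC1 and 30.5 ± 9.599 CPM in spleen cDC1, and the difference between the types was -0.10 ± 0.40 (SE; adjusted p = 0.944). F11r and Clec4b1 had log2 differences of 4.41 ± 0.25 and 4.79 ± 0.33 (SE) in cDC1 and 4.64 ± 0.27 and 5.24 ± 0.22 (SE) in cDC2, with differences between the types of 0.22 ± 0.32 (SE; adjusted p = 0.806) and 0.42 ± 0.49 (SE; adjusted p = 0.739). Nod1 was lower in kidney in both types, and its difference of -1.13 ± 0.31 (SE; adjusted p = 0.0503) did not pass with edgeR and did with DESeq2 (-1.11, adjusted p = 0.00911). Ltb4r1, also higher in kidney in both types, had the larger increase in cDC1, with a difference of -2.26 ± 0.36 (SE; adjusted p = 0.00266), which did not pass without pair 2 (-1.89, adjusted p = 0.107).

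**Figure D5:**
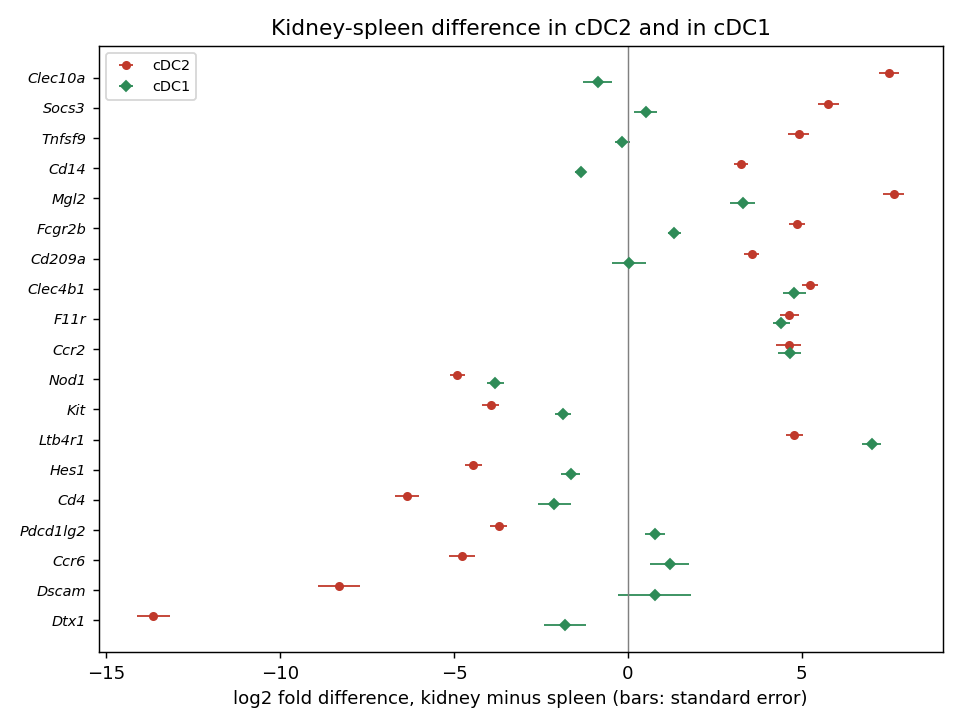
Log2 differences, kidney minus spleen, with standard errors for 19 genes in cDC2 (red circles) and cDC1 (green diamonds), 3 pairs of libraries each, ordered by the difference between the types. Clec10a, Socs3 and Tnfsf9 were called in cDC2 and not in cDC1, while F11r, Ccr2 and Clec4b1 lie close together.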

How the data were processed

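RNA was isolated from sorted cells with the PicoPure kit, amplified with SMARTseq v4 and made into libraries with the MicroPlex kit, per the labels' protocols. Per the submitters' processing notes, STAR and RSEM were used with mm10; versions are not given in the sources used here. The deposited STAR read counts per gene (first count column, which ignores strand, so a gene and an overlapping antisense gene cannot be told apart) were the main data. The authors' RSEM expected counts, rounded here, and their deposited TPM values served as alternatives. Unmapped, multimapping and ambiguous reads, and reads in no counted gene feature, were left out of library sizes.

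Counts were fitted in R 4.3.3 with edgeR 4.0.16 (filterByExpr with a count minimum of 10, TMM, quasi-likelihood test, Benjamini-Hochberg adjustment over all 11726 genes), with the pair as a block. The same model over 12 libraries tested cDC2 against cDC1. The method was tested on simulated data that held no pair effect and no length shift, so that test does not cover these features. The pairs come from the sort code in the file names, and the residuals of paired libraries correlated at 0.118, 0.127 and 0.206. A gene was called at an adjusted p below 0.05 and an absolute log2 difference of at least 1. Where a group had no read, the fold is a bound from 3 reads over the group; ratios on 1 to 3 reads carry exact 95% Poisson intervals. These Poisson intervals and floors cover counting error only. The 95% intervals of log2 differences come from the standard error of the edgeR fit, and so include the spread between libraries.

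Named genes were the 15 largest called differences in each direction whose libraries did not overlap and whose higher group averaged 10 CPM or more, leaving out predicted and clone symbols, the sort panel, up to 4 called genes per list, and the 5 largest in each direction between cDC2 and cDC1. Further genes were named for their role after their values were seen, and some genes that meet the rule are not reported here. Members and lists were chosen with earlier results of these data known. Alternatives were no block, DESeq2 1.42.0, other scalings and filters, limma 3.58.1 on log2(TPM + 1), more libraries in the fit, a test against a log2 of 1 and each pair left out. Fitting without kidney library 1 was chosen after seeing the data. Gene coordinates are from GENCODE and promoters from RefSeq, both on GRCm38.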

Additional observations from a re-analysis of the deposited data

Results flagged for a closer look

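The kidney-spleen difference was tested against that in cDC1, and the 5 largest differences in each direction with at least 10 CPM in a group are given here. Each was picked because the 2 cell types differed by the interaction term of edgeR's quasi-likelihood fit over 12 libraries.

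In the positive direction the log2 differences were 15.62 for Pcsk5, 8.58 for Flt1, 8.36 for Clec10a, 8.33 for Paqr5 and 8.17 for Itga1, with adjusted p-values of 0.00635, 0.000106, 1.01e-05, 0.023 and 0.000404. Among these 5 only Clec10a had a mean above 10 CPM in kidney cDC2. Pcsk5, a proprotein convertase, had a mean of 0.141 ± 0.244 CPM in kidney cDC2 and 0 in spleen cDC2, against 0 in kidney cDC1 and 17.5 ± 3.93 CPM in spleen cDC1 (SD, n = 3 each). Fitted differences of genes with a group at 0 depend on the prior count of the fit. Flt1, a VEGF receptor also held by the endothelial list, averaged 2.72 ± 1.16 CPM in kidney cDC1 and 24.6 ± 4.05 CPM in spleen cDC1, and read 1.53, 2.16 and 2.79 CPM in kidney cDC2 and 0, 0.112 and 0 CPM in spleen cDC2. Itga1, a collagen-binding integrin chain, read 1.35, 2.86 and 3.04 CPM in kidney cDC2 and 0 in spleen cDC2, and Paqr5, a progestin receptor, 6.01, 6.62 and 11.5 CPM in kidney cDC2 and 0 in spleen cDC2.

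In the negative direction they were -11.90 for Dtx1, -10.21 for Mmp14, -9.04 for Dscam, -6.75 for Frmd5 and -6.61 for Lysmd2, with adjusted p-values of 0.000245, 3.43e-05, 0.00185, 0.000401 and 0.00131. Mmp14, a membrane-bound matrix metalloproteinase, averaged 32.7 ± 6.09 CPM in kidney cDC1 and 0.0447 ± 0.0387 CPM in spleen cDC1. It read 20.8, 7.32 and 3.36 CPM in kidney cDC2 and 19.8, 16.6 and 12.7 CPM in spleen cDC2. In cDC2 it was not called with edgeR and TMM scaling on all 3 pairs. Frmd5 read 0, 0.422 and 0.824 CPM in kidney cDC2 and 36.7, 31.5 and 28.05 CPM in spleen cDC2, and Lysmd2 0.359, 0.891 and 0.507 CPM in kidney cDC2 and 87.3, 71.6 and 73.8 CPM in spleen cDC2. In cDC2 Mmp14 was called lower without pair 1 (-1.52, adjusted p = 0.00286), with DESeq2 (-1.01, adjusted p = 0.0498), without TMM scaling (-1.36, adjusted p = 0.0302) and with limma (-1.46, adjusted p = 0.0103). Pcsk5 lost its call with DESeq2 (13.07, adjusted p = 0.168). Without pair 2 the calls of Pcsk5 (10.67, adjusted p = 1), Paqr5 (8.08, adjusted p = 0.224), Dtx1 (-9.22, adjusted p = 0.169) and Lysmd2 (-6.77, adjusted p = 0.0911) were lost, and that of Paqr5 also without pair 3 (7.36, adjusted p = 0.0905).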

How the results depend on the processing

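Against 2500 calls with the pairs as a block, the fit without the replicate block made 2490 (1410 higher and 1080 lower), of which 2322 were shared in the same direction. Without TMM scaling 790 genes were higher and 2116 lower, and limma on log2(TPM + 1) called 3815, with 522 higher and 3293 lower, where the median log2 difference of all genes was -0.587. A test against a log2 of 1 called 1042, with 569 higher and 473 lower. Leaving out each pair in turn gave 2563 to 2687 calls, 1349 to 1427 of them higher and 1136 to 1281 lower. Of the 2500 calls, 2004 were kept in the same direction without pair 1, 2154 without pair 2 and 2161 without pair 3. With kidney cDC2 of both name prefixes, fitted without the pairing, 2075 genes were called and 1875 of the 2500 were kept. For the difference between cDC2 and cDC1 the count was 620 without the replicate block, 1157 with DESeq2, and 259 to 1115 when each pair was left out (167 to 670 positive and 92 to 445 negative).

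Of 201 genes followed in cDC2, 18 lost their call without TMM scaling, 29 with limma and 5 without the replicate block (Apoe, Kif11, Slc5a3, Notch2 and Psenen). Without pair 1, 13 lost it. Ptger3 lost it over 21 libraries (-1.58, adjusted p = 0.221) and over all 33 (-0.92, adjusted p = 0.536). Among those called with all 6 libraries none changed direction under the settings run. Signs changed for genes that were not called. Zeb2 was 0.046 without kidney library 1. Xcr1 was -0.14 without TMM scaling, -0.32 with limma and -0.023 to 0.38 when each pair was left out. Ncstn was 0.021 among genes of at least 10 CPM, 0.00091 with RSEM counts, 0.084 over all 33 libraries, 0.071 with both name prefixes and -0.0462 to 0.0397 when each pair was left out. Gpr183 was -0.36 without TMM scaling, -0.70 with limma, -0.033 over 21 libraries, -0.065 with both prefixes, -0.16 without kidney library 1 and -0.20 to 0.24 when each pair was left out. Cd83 was -0.21 without TMM scaling and -0.57 with limma. Il1b was 0.33 over all 33 libraries, 0.030 with both prefixes and -0.40 to 0.32 when each pair was left out. Between cDC2 and cDC1, when each pair was left out, Ccr2 was -0.26 to 0.24 and F11r -0.039 to 0.51.

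Depth limits the genes read at 0, for which 3 reads correspond to 0.1408 to 0.2693 CPM per library. Limits that touch many results are the 2 different gates, the length shift of kidney library 1, the tubule markers in the GS kidney libraries and the small number of sorts.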
